A study of Mus musculus with 10 samples.

Results

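The genes examined here were 44 genes of the cell cycle and of DNA replication, chosen by name as cyclins, cyclin-dependent kinases (CDKs) and their inhibitors, E2F factors and pocket proteins, replication proteins and proteins of mitosis. All 44 were matched from symbol to Ensembl identifier among the 49662 genes of the deposited table, and all 44 were estimated in every group. The RNA came from E12.5 embryonic mouse hearts of 3 groups, all on a 129/Sv background. Wild-hypoxia hearts (3 samples) came from wild-type embryos whose mothers were kept at 14% oxygen from gestation day 10, which made 2 days of hypoxia before dissection. Mutant-normoxia hearts (3 samples) came from embryos heterozygous for the Nkx2-5 R52G knock-in allele at normal oxygen, and wild-normoxia hearts (4 samples) from wild-type embryos at normal oxygen. Nkx2-5 encodes a homeodomain factor that the heart needs to develop normally. The allele is carried in the germ line, so every cell of the embryo had it, whereas low oxygen reached the embryo through its mother. A gene count does not show the allele, so the genotype label could not be checked. Each sample pooled 2 to 3 whole hearts, so that the RNA of muscle, endothelium, epicardium and blood in the hearts was measured together.

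A cell that divides is pushed out of G1 by D-type cyclins bound to Cdk4 or Cdk6, which phosphorylate the pocket proteins Rb1 and Rbl1 and so release E2F factors. E2F factors then switch on cyclin E, the minichromosome maintenance (MCM) helicase and other genes of S phase. Later, the factors Mybl2 and Foxm1 switch on the genes of G2 and mitosis. Heart muscle cells of the mid-gestation embryo still divide, and most leave the cycle around birth. Red cell precursors also divide while they mature, and in the mouse E2f2 and Ccnd3 are known to act in that step.

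The table held 1 estimated count, which is the number of sequenced fragments Cufflinks assigned to a gene, for each gene and group, with no value for a single sample. A spread between samples could therefore not be given, and no difference was tested. Differences were described as log2 fold changes between group values, with a pseudocount of 1. Each is given with a model standard error, computed from the variance the authors deposited beside the count and the number of samples. A value over 2 model standard errors is a description of size, not a test. Comparisons covered the 17204 genes that reached 10 fragments in 1 or more groups. Of these, 9090 had at least 300 fragments in every group and are called abundant here. Totals were 19.6 M estimated fragments in wild-hypoxia, 18.7 M in mutant-normoxia and 18.5 M in wild-normoxia. All 15 listed cardiomyocyte markers were abundant, and their median log2 fold change over wild-normoxia was 0.00 in wild-hypoxia and 0.08 in mutant-normoxia hearts. In the same order of groups, the medians were 0.11 and -0.04 for 8 endothelial, 0.17 and 0.24 for 6 epicardial and -0.04 and 0.07 for 8 macrophage markers. Of these macrophage markers Lyz2 stood apart in mutant-normoxia, with 405 fragments in wild-hypoxia and 148 in mutant-normoxia, against 504 in wild-normoxia (-0.31 and -1.76, the second with a model standard error of 0.21). It was the only one of the 8 over 2 model standard errors there (all compared genes: 1.13% lower, 3.14% higher). Lyz2 has a near-identical copy, Lyz1, that could share its reads. Also past that size in mutant-normoxia were the cardiomyocyte markers Myl7 (0.44) and Pln (-0.35) and the epicardial markers Aldh1a2 (0.62) and Upk3b (0.28). In wild-hypoxia only Aldh1a2 (0.44) of these lists was, where 2.24% of all compared genes were that much higher. Markers of liver and keratinocytes differed more in both groups, and those of neurons in wild-hypoxia. The 12 liver markers had medians of -1.29 (wild-hypoxia) and -1.41 (mutant-normoxia), those of 6 keratinocyte markers were 2.36 and 2.05 in the same order of groups, and those of 8 neuron markers were -0.84 and 0.26. The neuron medians rest in part on low counts, such as 2.84 fragments of Neurod1 in wild-hypoxia. Some errors were wide, with model standard errors of 3.72 and 3.31 for Tubb3. Nhlh2 was lower in both groups (-2.61 and -1.07). For any of these markers, a different number of cells of a type, of the heart or of other tissue, and a different amount of RNA per cell cannot be told apart in such whole-organ samples.

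Promoter sequences are shown because short elements in them are known to time these genes by phase. Elements of 3 kinds were searched on both strands. The CHR (cell cycle homology region) was searched as TTTGAA and the CCAAT box, the element of the factor NF-Y, by the letters of its name. The E2F site was searched in 4 forms, which were TTCCCGC in the first place, then TTCGCGC as well as the form TTGCCGC, and TTGGCGC to complete the set. Windows of 300 bases, which hold 250 bases before and 50 after a start site, were taken from the RefSeq table of GRCm38.p6, where 35 of the 44 genes had one, and the first listed start site of a gene was counted. A CHR was found in 11 of the 17 genes of G2 and mitosis with a window (64.7%), and all 11 also had a CCAAT box. Of all 27025 genes with a window, 18.1% had a CHR and 7.12% had both. Among the 6 replication genes, 6 had a CCAAT box and 4 an E2F site (66.7%), against 37.9% and 9.69% of all genes. None of the 8 G1 and G1/S genes had a CHR, and 3 had an E2F site. A match is a description of letters and not of binding. The promoters printed next belong to Cdk1, Cdc20, Kif11 and Top2a, as examples with a CHR, and to Mcm5 and Mcm6, as examples with E2F sites. E2f2 and Cdk6 are added because their RNA differed most between the groups. Each ends at the base before the start site and reads 5′ to 3′ on the strand of the gene, with matches in capitals, and neighbouring matches can overlap.
Cdk1: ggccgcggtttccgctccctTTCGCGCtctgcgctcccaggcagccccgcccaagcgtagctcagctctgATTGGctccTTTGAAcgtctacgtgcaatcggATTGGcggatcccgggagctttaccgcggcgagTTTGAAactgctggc
Cdc20: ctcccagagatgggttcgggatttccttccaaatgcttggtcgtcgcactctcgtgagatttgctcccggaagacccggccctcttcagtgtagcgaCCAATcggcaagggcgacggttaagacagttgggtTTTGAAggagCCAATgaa
Kif11: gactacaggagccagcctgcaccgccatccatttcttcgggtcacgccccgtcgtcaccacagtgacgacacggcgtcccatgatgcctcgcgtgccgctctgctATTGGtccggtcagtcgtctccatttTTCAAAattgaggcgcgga
Top2a: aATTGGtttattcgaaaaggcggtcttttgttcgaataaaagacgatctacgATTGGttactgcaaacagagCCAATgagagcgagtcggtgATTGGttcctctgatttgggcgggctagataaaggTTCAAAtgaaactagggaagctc
Mcm5: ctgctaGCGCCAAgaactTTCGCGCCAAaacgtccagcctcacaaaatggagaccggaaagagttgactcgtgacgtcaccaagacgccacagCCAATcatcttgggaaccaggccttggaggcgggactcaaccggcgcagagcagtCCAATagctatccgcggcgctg
Mcm6: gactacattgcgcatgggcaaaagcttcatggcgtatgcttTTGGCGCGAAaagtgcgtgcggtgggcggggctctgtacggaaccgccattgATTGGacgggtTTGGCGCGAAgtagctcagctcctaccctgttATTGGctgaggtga
E2f2: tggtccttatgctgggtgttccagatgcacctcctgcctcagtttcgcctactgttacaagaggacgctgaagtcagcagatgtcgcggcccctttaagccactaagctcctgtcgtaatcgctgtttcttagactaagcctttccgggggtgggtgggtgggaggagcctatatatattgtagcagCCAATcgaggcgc
Cdk6: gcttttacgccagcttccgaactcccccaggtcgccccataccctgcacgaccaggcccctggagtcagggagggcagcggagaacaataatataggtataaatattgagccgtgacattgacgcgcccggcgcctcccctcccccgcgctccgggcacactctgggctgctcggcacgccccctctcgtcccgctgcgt
In GRCm38.p6 these lie at chr10:69352913-69353062 (Cdk1, minus strand), chr4:118437344-118437493 (Cdc20, minus), chr19:37376232-37376381 (Kif11, plus), chr11:99024190-99024339 (Top2a, minus), chr8:75109339-75109508 (Mcm5, plus), chr1:128359706-128359855 (Mcm6, minus), chr4:136172074-136172273 (E2f2, plus) and chr5:3343693-3343892 (Cdk6, plus). The stretch of Cdk1 has 2 CHR matches, 2 CCAAT boxes and 1 E2F match, and that of Top2a 1 CHR and 4 CCAAT boxes. The printed stretch of E2f2 has 1 CCAAT box beside its start site. The window of that site also has an E2F match after the start, outside the printed bases, and the window of another annotated start site of E2f2 has a CHR. The printed stretch of Cdk6 has none of the elements, nor does the rest of its window.

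**Figure D1:**
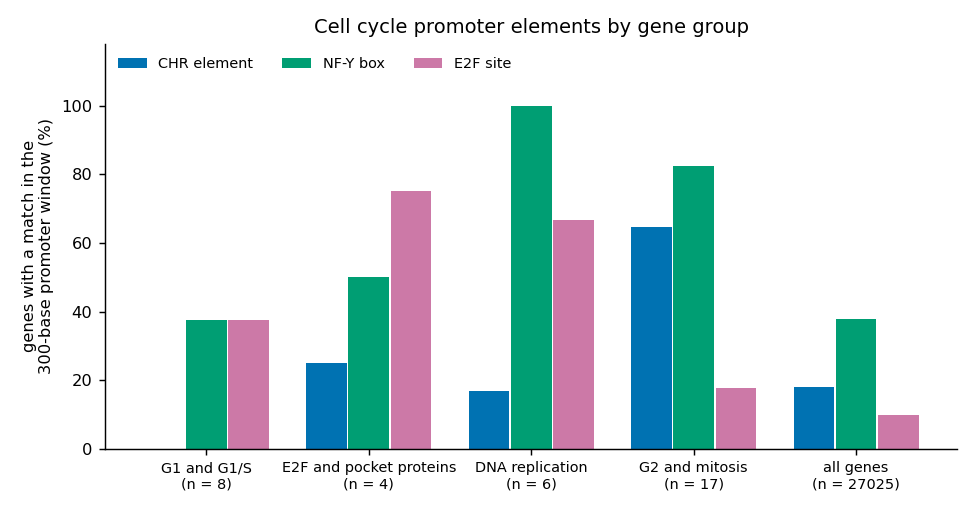
Share of genes (%) with at least 1 match to a CHR, a CCAAT box (drawn as NF-Y box) or an E2F site in the 300-base promoter window, by phase group and for all 27025 genes with a window. The CHR bar is tallest in G2 and mitosis (64.7%, against 18.1% of all genes), and the NF-Y bar reaches 100% in the 6 replication genes.

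Most of the 44 genes had nearly the same estimated count in all 3 groups. Their summed count was 116741 fragments in wild-hypoxia, 118915 in mutant-normoxia and 117373 in wild-normoxia. The median log2 fold change over wild-normoxia was 0.01 in wild-hypoxia (all compared genes -0.02) and 0.01 in mutant-normoxia (all compared genes -0.01). In wild-hypoxia 21 of 44 were lower than in wild-normoxia, where 54.1% of all compared genes were lower, and in mutant-normoxia 17 of 44 (38.6%), where 52.1% were lower. With the groups scaled to the same total, 23 were lower in wild-hypoxia, where 57.3% of all compared genes then were, and 26 (59.1%) in mutant-normoxia, where 58.8% were. The split in mutant-normoxia thus turned with the scaling and then lay near that of all genes. None of the 44 was over 2-fold in either comparison, a size that 2.99% of all compared genes passed in wild-hypoxia and 2.08% in mutant-normoxia hearts. Among abundant genes, which these 44 all are, the shares over 2-fold were 0.341% and 0.297%, so a count of 0 is near the background. The model standard error of a member's fold change had a median of 0.15 in both comparisons and reached 0.34. The interval of 2 model standard errors to each side stayed within 1.5-fold for 38 genes in wild-hypoxia and 39 in mutant-normoxia, as it did for 7633 and 7981 of the 9090 abundant genes, which is a like share. Within 1 model standard error of no difference were 36 genes in wild-hypoxia, against 75.3% of all compared genes, and 42 in mutant-normoxia, against 82.6%.

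**Figure D2:**
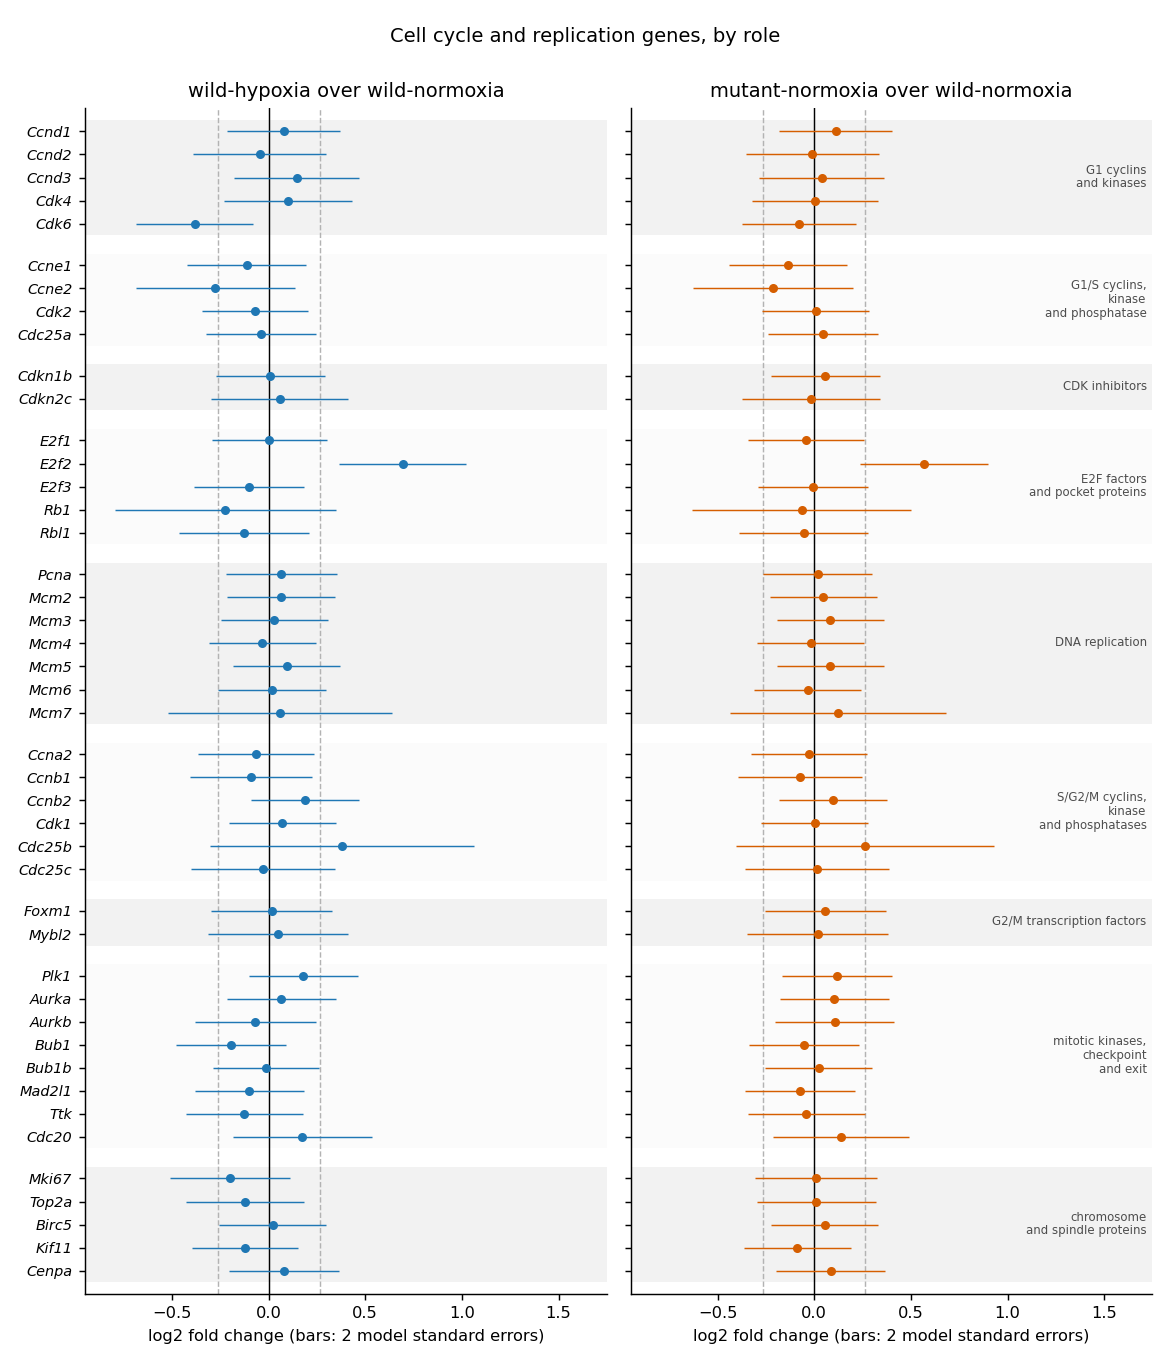
Log2 fold change of each of the 44 genes, grouped by role, in wild-hypoxia (left) and mutant-normoxia (right) over wild-normoxia. Points are ratios of group values, bars reach 2 model standard errors to each side, and dashed lines mark a fold of 1.2. The bar of E2f2 clears 0 in both panels and that of Cdk6 in wild-hypoxia, while the other bars cross 0.

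Beyond a fold of 1.2 in wild-hypoxia were E2f2 and Cdc25b, higher (8.79% of all compared genes and 3.04% of abundant genes were), and Cdk6 and Ccne2, lower (14.7% and 5.75% were). In mutant-normoxia only E2f2 was over 1.2-fold higher (10.3% of all compared genes, 3.17% of abundant genes), and none of the 44 was over 1.2-fold lower (8.32% and 1.79%). Over 2 model standard errors in wild-hypoxia were E2f2, higher (2.24% of all compared genes, 1.95% of abundant genes), and Cdk6, lower (3.4% and 3.18%). In mutant-normoxia E2f2 was over 2 model standard errors higher (3.14% and 2.06%), and no member was that much lower (1.13% and 0.913%). Counts of 0 to 2 among 44 genes are near the shares among abundant genes, and nothing is read from them about the 44 as a set. With the deposited variance not divided by the number of samples, 1 member in wild-hypoxia and 0 in mutant-normoxia stayed over 2 model standard errors. Both comparisons share the wild-normoxia group, and a value that is off there moves both.

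E2f2, which encodes an activating E2F factor, was the member that differed most. Its gene (ENSMUSG00000018983) lies at chr4:135728309-135751972 on the plus strand of NCBIM37. It had 776 estimated fragments in wild-hypoxia hearts and 710.5 in mutant-normoxia hearts, against 479 in wild-normoxia hearts. The wild-normoxia value was the low one, and the other 2 were close to each other. Over wild-normoxia, the log2 fold change in wild-hypoxia came to 0.69, with a model standard error of 0.16, and that in mutant-normoxia to 0.57 (0.16). It was 0.13 (0.17) for wild-hypoxia over mutant-normoxia. The paper's supplementary lists of genes significant against wild-normoxia, for wild-hypoxia and for mutant-normoxia, do not hold E2f2. The other activating E2F factors had values near wild-normoxia. E2f1 had 857, 829 and 854 fragments in wild-hypoxia, mutant-normoxia and wild-normoxia (log2 fold changes 0.00 and -0.04), and E2f3 had 1130.4, 1209 and 1214 (-0.10 and -0.01). Per kilobase of annotated exon, E2f1 stood 1.71 times as high as E2f2 in wild-hypoxia and 1.81 times in mutant-normoxia, against 2.76 times in wild-normoxia.

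Markers of red cells moved in the same direction as E2f2 in the same hearts. Of 14 listed markers 13 were compared, and their summed count was 48670 fragments in wild-hypoxia and 44603 in mutant-normoxia, against 23030 in wild-normoxia. In wild-hypoxia 12 of the 13 were higher than in wild-normoxia, all 12 over 2 model standard errors. In mutant-normoxia all 13 were higher, of which 11 were over 2 model standard errors. Of all compared genes 2.24% were that much higher in wild-hypoxia and 3.14% in mutant-normoxia. The medians of the 13 markers were 0.83 and 0.91. This direction was not particular to red cells. Medians of keratinocyte (2.36 and 2.05) and epicardial markers (0.17 and 0.24) were also above 0 in both groups, while those of liver markers (-1.29 and -1.41) were below. Klf1, an erythroid transcription factor, had 687 and 643 fragments in wild-hypoxia and mutant-normoxia, against 385 in wild-normoxia (log2 fold changes 0.83 and 0.74). Gata1, the master factor of the red cell lineage, had 269 and 243, against 179 (0.58 and 0.44). Alas2, which starts haem synthesis in red cells, had 9537 and 7489, against 2743 (1.80 and 1.45). The log2 fold changes of E2f2 lay between those of Gata1 and Klf1 in both groups. Gata1 was the lowest of the 13 in counts, so none was at 0. Tfrc, the transferrin receptor, which dividing cells of many types carry, had 3505 and 4138, against 3907 (-0.16 and 0.08). The part of red cell RNA in the E2f2 values was not tested. Ccnd3, which acts in dividing red cell precursors among other cells, had 8175 and 7599 fragments, against 7398 (0.14 and 0.04), within 1 model standard error in both comparisons.

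**Figure D3:**
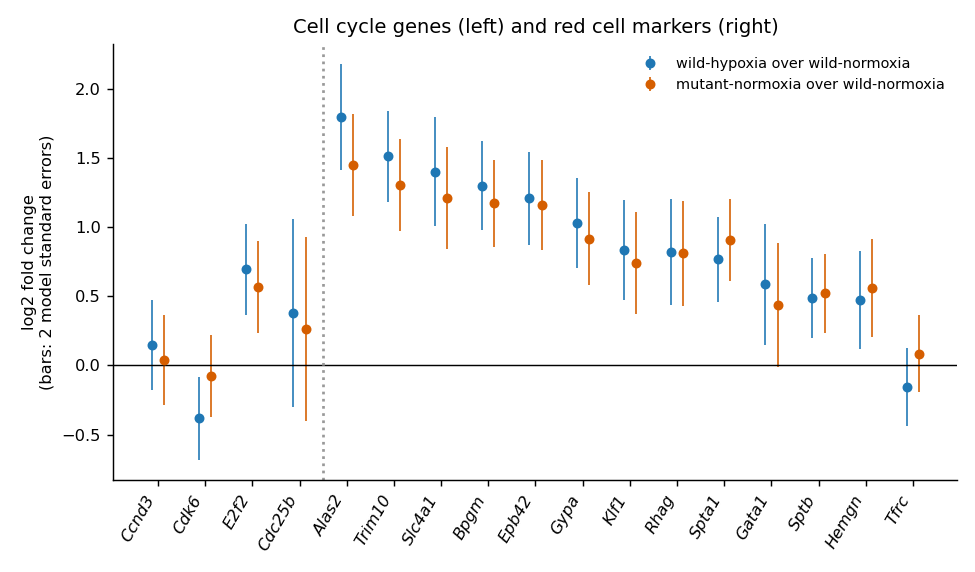
Log2 fold change over wild-normoxia of 4 cell cycle genes (left of the dotted line: Ccnd3, and the 3 with the largest differences) and of the 13 compared red cell markers (right), in wild-hypoxia and mutant-normoxia; bars reach 2 model standard errors to each side. E2f2 (0.69 and 0.57) sits among the lower red cell markers in both groups, while Cdk6 is below 0 in both.

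Cdk6, a G1 kinase that partners D-type cyclins, was the member furthest below wild-normoxia in wild-hypoxia. Its gene (ENSMUSG00000040274) lies at chr5:3343893-3523218 on the plus strand of NCBIM37. It had 759.8 fragments in wild-hypoxia hearts and 938 in mutant-normoxia hearts, against 991 in wild-normoxia hearts. Only the wild-hypoxia value stood apart, and the paper's supplementary list of genes significant in wild-hypoxia does not hold Cdk6. Over wild-normoxia, wild-hypoxia had a log2 fold change of -0.38 (0.15) and mutant-normoxia one of -0.08 (0.15). For wild-hypoxia over mutant-normoxia it was -0.30 (0.16), under 2 model standard errors but over a fold of 1.2, as were 12.3% of all compared genes in that direction. Cdk4, the other G1 kinase, had 11128, 10412 and 10392 fragments in wild-hypoxia, mutant-normoxia and wild-normoxia (0.10 and 0.00 over wild-normoxia). Per kilobase, Cdk4 was 16.8 times as high as Cdk6 in wild-hypoxia and 12.8 times in mutant-normoxia, against 12.1 times in wild-normoxia.

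The D-type cyclins, which bind these kinases, differed little. Ccnd1 had 4086 fragments in wild-hypoxia and 4179 in mutant-normoxia, against 3870.04 in wild-normoxia (0.08 and 0.11). Ccnd2 had 10957 and 11234, against 11314 (-0.05 and -0.01). In Ccnd1, 21.3% of the annotated exon bases also belong to the gene Oraov1 on the other strand, the only such overlap over 20% among the 44, and whether reads were counted by strand is not given in the sources used here. Of the 44 genes, 12 shared some exon bases with another gene, and Ccnb2, Ccnd3 and Pcna have named pseudogenes that could take reads of 40 bases. The CDK inhibitors Cdkn1b (p27) and Cdkn2c (p18), which hold cells in G1, had log2 fold changes of 0.01 and 0.06 in wild-hypoxia hearts, and of 0.06 and -0.02 in mutant-normoxia hearts. Their counts were 1802, 1865 and 1792 for Cdkn1b and 379, 359.9 and 364 for Cdkn2c in wild-hypoxia, mutant-normoxia and wild-normoxia.

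At the step from G1 into S phase, all 4 genes were lower in wild-hypoxia than in wild-normoxia, by small amounts (median -0.09), and 2 of 4 in mutant-normoxia (median -0.06). Of all compared genes 54.1% and 52.1% were lower. In each comparison 3 of the 4 lay within 1 model standard error, against 75.3% and 82.6% of all compared genes. Nothing is read from the direction of so few genes. Ccne2, a cyclin that activates Cdk2, had 917 fragments in wild-hypoxia and 958 in mutant-normoxia, against 1110.4 in wild-normoxia. Its log2 fold changes were -0.28 (0.21) and -0.21 (0.21), near 1 model standard error in both. Ccne1, the other E-type cyclin, had 741 and 730.4, against 802 (-0.11 and -0.14). Cdk2 itself had 1683 and 1776, against 1767 (-0.07 and 0.01), and Cdc25a, a phosphatase that removes the brake on CDKs, had 1274 and 1352, against 1309.6 (-0.04 and 0.05). The pocket proteins, which restrain E2F factors, lay below wild-normoxia in both groups. Rb1 had 662 and 739 fragments in wild-hypoxia and mutant-normoxia, against 773 (-0.22 and -0.06), with a wide model standard error of 0.29 and 0.28. Rbl1 (p107) had 1001 and 1053, against 1094 (-0.13 and -0.05). None of these values exceeded 2 model standard errors.

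The replication genes differed little from wild-normoxia. Across Mcm2 to Mcm7, the subunits of the ring that opens the DNA helix, and Pcna, the clamp that holds the polymerases, log2 fold changes ran from -0.03 to 0.09 in wild-hypoxia and from -0.03 to 0.12 in mutant-normoxia. All 7 lay within 1 model standard error in both, as did 75.3% of all compared genes in wild-hypoxia and 82.6% in mutant-normoxia. Mcm5 had 2910.5 fragments in wild-hypoxia and 2893 in mutant-normoxia, against 2730.01 in wild-normoxia (0.09 and 0.08). Mcm2, the most abundant of them, had 4269.97 and 4215, against 4081 (0.07 and 0.05), and Mcm3 had 3099 and 3219, against 3039.7 (0.03 and 0.08). Mcm4 was lower in both groups, with 3295 and 3329.7 fragments, against 3372 (-0.03 and -0.02), and Mcm6 had 3738 and 3605, against 3691 (0.02 and -0.03). Mcm7 had 1798 and 1881, against 1729 (0.06 and 0.12), with the widest error of the group (0.29 and 0.28), and Pcna had 1312 and 1268, against 1253 (0.07 and 0.02). The ring holds its subunits in equal parts, while their RNA per kilobase spanned a ratio of highest to lowest of 3.12 in wild-hypoxia, 2.94 in mutant-normoxia and 3.10 in wild-normoxia. That ratio rests on Mcm7, the lowest in each group. In wild-normoxia Mcm7 had 391 fragments per kilobase, and the next, Mcm5, had 780. Mcm7 also shares exon bases with other genes.

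Among the cyclins and phosphatases of S phase, G2 and mitosis, Cdc25b had the largest value and the largest error. This phosphatase, which starts the activation of Cdk1 at the centrosome, had 1083 fragments in wild-hypoxia hearts and 999 in mutant-normoxia hearts, against 832 in wild-normoxia hearts. The log2 fold changes of 0.38 and 0.26 had model standard errors of 0.34 and 0.33, so both lay near 1 model standard error, the second just under a fold of 1.2. Cdc25c, its relative, had 305 and 314, against 311 (-0.03 and 0.01). Ccnb2, a B-type cyclin, had 1774 and 1666, against 1559 (0.19 and 0.10), while Ccnb1, the main mitotic cyclin, had 620.5 and 628, against 661 (-0.09 and -0.07). Cdk1, the kinase both bind, had 3490.1 and 3326, against 3322 (0.07 and 0.00), and Ccna2, the cyclin of S phase and G2, had 5927 and 6093, against 6212 (-0.07 and -0.03). The factors that drive the late program lay within 1 model standard error of wild-normoxia. Foxm1 had 1943 and 2001, against 1922 (0.02 and 0.06), and Mybl2 had 341 and 333, against 329 (0.05 and 0.02).

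The mitotic kinases and checkpoint genes split in wild-hypoxia, with 5 of 8 lower and 3 higher than in wild-normoxia, none over 2 model standard errors. Of all compared genes 54.1% were lower there. Bub1, a kinetochore kinase of the spindle checkpoint, had 1337 fragments in wild-hypoxia and 1474 in mutant-normoxia, against 1528 in wild-normoxia (-0.19 and -0.05, model standard errors 0.14 and 0.14). Ttk (Mps1), which starts checkpoint signalling, had 764 and 811, against 834 (-0.13 and -0.04), and Mad2l1, which inhibits the anaphase activator, had 1529.6 and 1559, against 1641 (-0.10 and -0.07). Bub1b (BubR1) had 2462 and 2522, against 2484 (-0.01 and 0.02). The higher ones were Plk1, a kinase of mitotic entry and spindle assembly, with 1506 and 1442, against 1329.7 (0.18 and 0.12), Cdc20, the anaphase activator, with 1452 and 1416, against 1287 (0.17 and 0.14), and Aurka, the centrosome kinase, with 1493 and 1533, against 1427 (0.07 and 0.10). Aurkb, the kinase of the chromosomal passenger complex, had 647 and 731, against 679 (-0.07 and 0.10).

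The chromosome and spindle proteins included Mki67, the antigen by which dividing cells are stained. It had 9428 fragments in wild-hypoxia and 10895 in mutant-normoxia, against 10841 in wild-normoxia, so that the wild-hypoxia value was the low one. The log2 fold changes were -0.20 (0.16) and 0.01 (0.16), and -0.21 (0.17) for wild-hypoxia over mutant-normoxia. Top2a, which untangles replicated DNA, had the same order with 8519.9 and 9349, against 9278 (-0.12 and 0.01). Kif11, the motor that separates spindle poles, had 2319 and 2377, against 2526 (-0.12 and -0.09). Birc5 (survivin), of the passenger complex, had 1568 and 1606, against 1547 (0.02 and 0.05), and Cenpa, the histone of centromeres, had 1483 and 1488, against 1404 (0.08 and 0.08). All 5 were lower in wild-hypoxia than in mutant-normoxia, with a median of -0.04. Over all 44 genes, 28 were lower in wild-hypoxia than in mutant-normoxia, where 55.7% of all compared genes were lower, and the median was -0.03 (all compared genes -0.02). None was over 2 model standard errors in that comparison (2.3% of all compared genes in either direction).

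The longer of these genes tended to have the lower values in wild-hypoxia, as did longer genes in general. Lengths here are those of the NCBIM37 annotation, whose gene models are likely to differ from those the counts were made on. Across the 44 genes, Spearman's rho between the log2 fold change and the annotated exon length was -0.40 in wild-hypoxia and -0.19 in mutant-normoxia over wild-normoxia, and -0.39 for wild-hypoxia over mutant-normoxia. Across 8930 abundant genes with a length it was -0.40, -0.13 and -0.41 in the same order. Genes are not independent replicates, and all points of a comparison share the same libraries, so these are descriptions. Of the 6 members with at least 5000 bases of exon, 5 were lower in wild-hypoxia than in wild-normoxia (median -0.13). Of 3365 abundant genes of that length 2369 were lower, and their median was -0.07. The 3 members under 2000 bases had a median of 0.17, against 0.07 for 1401 abundant genes of that length. Mki67 and Top2a are the longest of the 44, with 10075 and 9070 bases of annotated exon, and Cdc20 and Ccnb2 are among the shortest, with 1868 and 1541. E2f2 with 4882 bases and Cdk6 with 3735 do not follow the length, the first lying above its length class and the second below. The part of length in the small values of single genes was not tested.

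**Figure D4:**
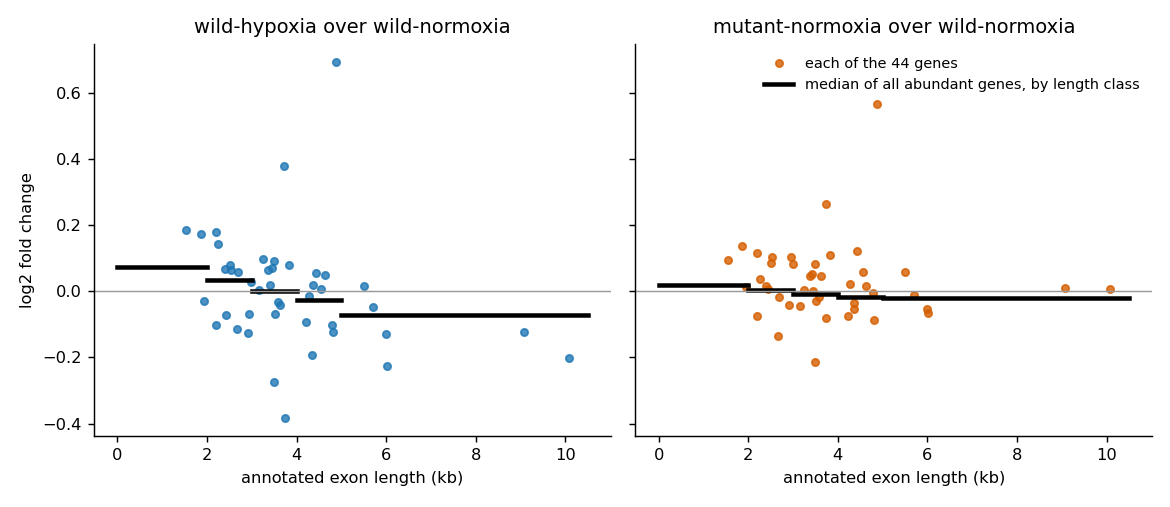
Log2 fold change of each of the 44 genes against its annotated exon length (kb), in wild-hypoxia (left) and mutant-normoxia (right) over wild-normoxia; black lines are medians of all abundant genes by length class. In wild-hypoxia the line steps down with length, from 0.07 under 2 kb to -0.07 from 5 kb, and the 44 genes scatter around it, with E2f2 the highest point in both panels.

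Levels among the 44 genes spanned a ratio of 49.3 in wild-hypoxia, 46.9 in mutant-normoxia and 46.2 in wild-normoxia, in fragments per kilobase of annotated exon. These levels rest on the same NCBIM37 lengths. The top was held by genes of G1. Ccnd3 had 3625 fragments per kilobase in wild-hypoxia and 3369.6 in mutant-normoxia, against 3281 in wild-normoxia, and Cdk4 had 3425 and 3205, against 3198. Then came Ccnd2 with 1922 and 1971, against 1985, and Ccna2 with 1689 and 1736, against 1769.7. Ccnd3 and Cdk4 differed by a ratio of 1.03 in wild-normoxia, and from Mki67 down to Cdk1 the largest step between neighbours, Mki67 over Top2a, was 1.05, so that order is not resolved at the model error. The lowest level was that of Mybl2, with 73.5 and 71.9 fragments per kilobase, against 71.0 in wild-normoxia. E2f2 had 159 fragments per kilobase in wild-hypoxia and 146 in mutant-normoxia, above Rb1 with 110.02 and 123, against 98.2 in wild-normoxia, under Rb1 with 129. Of the B-type cyclins, Ccnb2 stood 7.82 times as high as Ccnb1 per kilobase in wild-hypoxia and 7.26 times in mutant-normoxia, against 6.45 times in wild-normoxia. Aurka stood 2.68, 2.44 and 2.45 times as high as Aurkb in wild-hypoxia, mutant-normoxia and wild-normoxia.

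**Figure D5:**
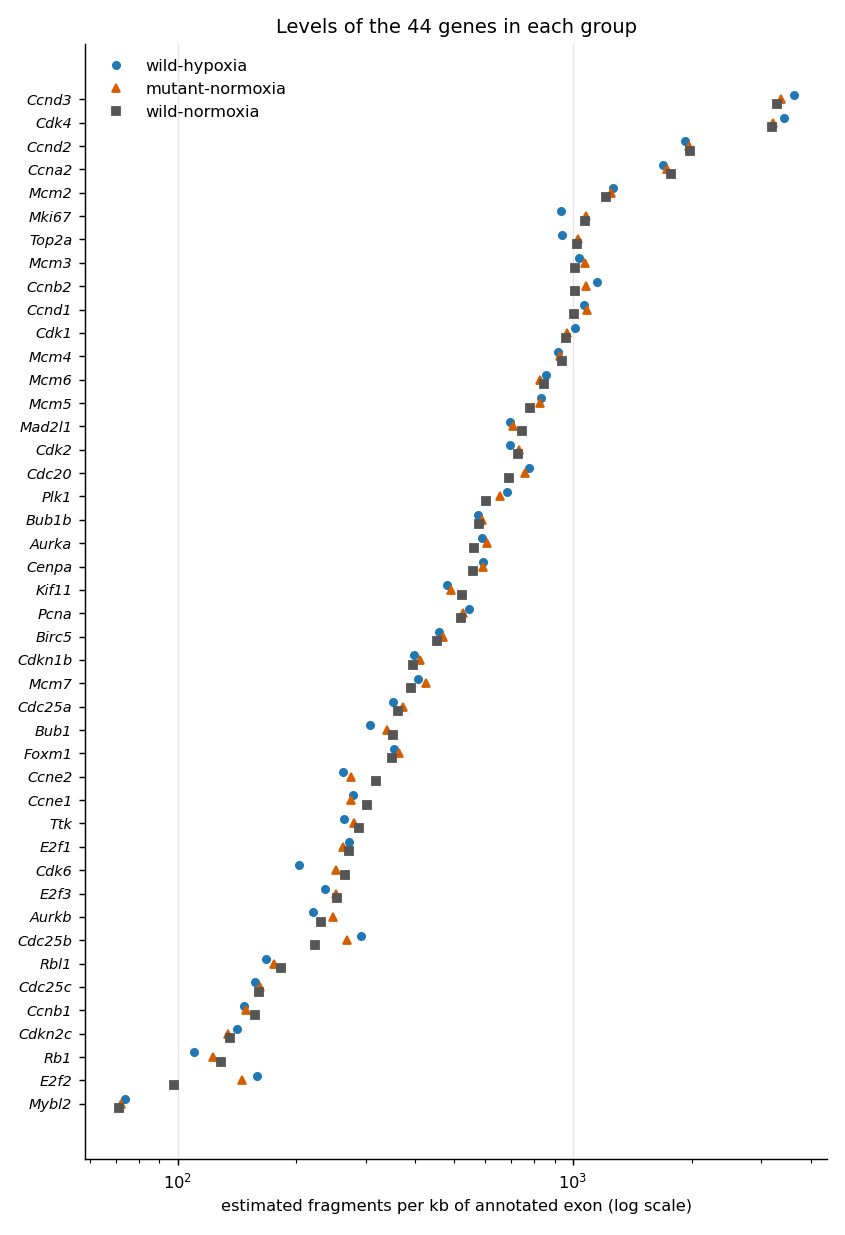
Estimated fragments per kilobase of annotated exon (log scale) of the 44 genes in wild-hypoxia, mutant-normoxia and wild-normoxia, ordered by the wild-normoxia level. The 3 symbols of a gene lie close together next to the span between genes, from Ccnd3 (3281 in wild-normoxia) to Mybl2 (71.0); E2f2 shows the widest gap.

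Other genes of the same pathways were read beside these 44 from 3 further lists. Of 46 other replication genes, all 46 were compared, and their median over wild-normoxia was -0.04 in wild-hypoxia and -0.01 in mutant-normoxia. Cdc7, the kinase that fires replication origins, was the only one over 2 model standard errors in either comparison. Shares of all compared genes past that size were 3.4% lower and 2.24% higher in wild-hypoxia, and 1.13% lower and 3.14% higher in mutant-normoxia, so 1 of 46 is near the background. Cdc7 had 646 fragments in wild-hypoxia and 776 in mutant-normoxia, against 932 in wild-normoxia (-0.53 with a model standard error of 0.15, and -0.26 with 0.15). Its activating subunit Dbf4 had 1146 and 1314, against 1371 (-0.26 and -0.06). The highest in wild-hypoxia were Gins4, a subunit of the replicative helicase, with 781 and 714, against 691 (0.18 and 0.05), and Pold2, a subunit of a replicative polymerase, with 1858 and 1798, against 1679 (0.15 and 0.10). Pole, the catalytic subunit of the leading-strand polymerase, had 794 and 1040.4, against 923, and was over 2 model standard errors lower in wild-hypoxia than in mutant-normoxia (-0.39). In wild-hypoxia over mutant-normoxia Pole was the only one of the 46 past that size, which 2.3% of all compared genes passed in either direction.

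Of 60 other mitosis genes, all were compared, and the median was -0.05 in wild-hypoxia and -0.00 in mutant-normoxia. In wild-hypoxia 4 were over 2 model standard errors lower and none higher, where 3.4% and 2.24% of all compared genes were. In mutant-normoxia none was in either direction, where 1.13% and 3.14% were. The 4 were Kif15, a spindle motor, with 735 fragments in wild-hypoxia and 924 in mutant-normoxia, against 964 in wild-normoxia (-0.39 and -0.06), Knl1, a kinetochore scaffold, with 789 and 909, against 991 (-0.33 and -0.12), Aspm, a spindle pole protein, with 1719 and 2095, against 2138 (-0.31 and -0.03), and Kif20b, a motor of cytokinesis, with 1147 and 1234, against 1416 (-0.30 and -0.20). Kif20b was also among the 3 lowest of the list in mutant-normoxia. Smc2, a condensin subunit, was the lowest of the 60 in mutant-normoxia among those averaging 100 fragments or more, with 3092 and 3141, against 3709 (-0.26 and -0.24). The highest in wild-hypoxia were Kif18b (0.15 with a model standard error of 0.49) and Cdca5 (0.14 with 0.17). The 4 lower genes have 4815 to 11491 bases of annotated exon. Of abundant genes, 2369 of 3365 with at least 5000 bases and 750 of 1288 with 4000 to 5000 were lower in wild-hypoxia. The part of length in the 4 values was not tested.

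Of 33 other genes of G1, the pocket proteins and the DREAM complex, which represses cell cycle genes in resting cells, 31 were compared, and the median was -0.06 in wild-hypoxia and -0.00 in mutant-normoxia. In wild-hypoxia 2 were over 2 model standard errors lower and none higher, where 3.4% and 2.24% of all compared genes were, and in mutant-normoxia none in either direction, where 1.13% and 3.14% were. Counts of this size in a list of 31 are near the background. Mybl1 (A-Myb) had 153 fragments in wild-hypoxia and 200.1 in mutant-normoxia, against 221 in wild-normoxia (-0.53 with 0.22, and -0.14 with 0.21). Myb, known for its role in immature blood cells, had 41.9 and 63.4, against 89.1 (-1.07 with 0.32, and -0.48 with 0.31), and was named after its values were seen, since it averaged under 100 fragments. Mybl2, the member of that family among the 44 genes, lay within 1 model standard error (0.05 and 0.02). Cdkn2b, also averaging under 100 fragments, was the highest of the list in both groups, with 56.2 and 49.3, against 35.8 (0.63 with 0.33, and 0.45 with 0.34). The CDK inhibitor Cdkn1c (p57), which is abundant in the embryo, had 22237 and 18729 fragments in wild-hypoxia and mutant-normoxia, against 20368 (0.13 and -0.12), and was the highest of the list for wild-hypoxia over mutant-normoxia (0.25 with 0.19). Ccng1, a target of p53, had 3978 and 3833, against 4523 (-0.19 and -0.24), the lowest of the list in mutant-normoxia among genes averaging 100 fragments or more.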

How the data were processed

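The samples were grouped by the labels. The authors selected poly-adenylated RNA, sequenced single-end reads of 40 bases at about 35 M reads per sample, checked them with FastQC, mapped them to mm9 with Bowtie2 and TopHat and quantified genes with Cufflinks, per the submitters' processing notes and the study's methods; versions: not given in the sources used here. As for values, the authors deposited 1 estimated count, 1 model variance (in squared fragments) and 1 status per gene and group. No value of a single sample was used, so neither p-values nor intervals over samples are given, and the design planned for group values, without a test, was followed. From these, Python 3.11.15 with numpy 2.4.6 and pandas 2.3.3 computed log2 ratios with a pseudocount of 1 over genes that reached 10 fragments in 1 or more groups, leaving out 34 genes without an estimate, and standard errors from the variance divided by the number of samples. The computation was tested on simulated data that were given the variance of a single sample. Whether the deposited variance is of that kind was not tested. Figures used matplotlib 3.10.9. Exon lengths and gene coordinates came from the NCBIM37 annotation and promoters from RefSeq for GRCm38.p6, and nothing was converted between builds. The gene annotation behind the deposited counts is not named. The paper's supplementary gene lists place genes such as Alas2 and Krt5 at other positions than NCBIM37, so those lists used another build than mm9. Exon lengths, levels per kilobase, exon overlaps and relations with length thus rest on other gene models than those lists. They are likely to differ from the models counted. Of the listed genes 4 were not matched (Ahsp, Cdkn2d, Pou3f2 and Miat). All 44 genes are described by role. Of each further pathway list, genes were named from the 3 highest and 3 lowest that averaged 100 fragments or more in each comparison. Myb and Cdkn2b, outside that rule, were named after their values were seen. The genes and lists were chosen with earlier results of these data known. Alternatives changed the pseudocount, the filter, the scaling, the variance and the lengths included.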

Additional observations from a re-analysis of the deposited data

How the results depend on the processing

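For 63 named genes (the 44, and 19 pathway and marker genes), 1131 log2 fold changes were recomputed under the planned pseudocounts, filters and scalings. All 1131 moved by under 1 model standard error, and 0 called directions reversed. Myb gave no value at a filter of 100 fragments. A filter leaves the log2 fold change of a gene as it is, and a scaling shifts all genes of a comparison almost alike. Small movements were thus largely built in and say little about the precision of single genes. With the groups scaled to the same total over compared genes, the median of the 44 genes in mutant-normoxia over wild-normoxia became -0.0101 in place of 0.0126, and 26 of the 44 (59.1%) were lower in place of 17, where 58.8% of all compared genes were lower in place of 52.1%. With the deposited variance not divided by the number of samples, 1 gene in wild-hypoxia (in place of 2) and 0 genes in mutant-normoxia (in place of 1) stayed over 2 model standard errors. Over the 28 members with under 4000 bases of annotated exon only, an alternative chosen after seeing the data, the median in wild-hypoxia became 0.0426. Over that subset it was 0.0281 in mutant-normoxia. Otherwise, over the 44 genes, the median in wild-hypoxia over wild-normoxia lay between -0.00869 and 0.0268 with 20 to 23 lower, that in mutant-normoxia between 0.0124 and 0.0154 with 17 lower, and that of wild-hypoxia over mutant-normoxia between -0.0342 and -0.0162 with 25 to 28 lower. No paired analysis was possible because the table holds 1 value per group, and leaving out each replicate in turn could not be done for the same reason. The precision of each value rests on the variance model of Cufflinks, which was not checked against samples, and the 35 promoter windows leave 9 of the 44 genes without sequence.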
